A study of Mus musculus with 2 samples.

Results

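C-type lectin receptors are surface proteins with which myeloid cells sense sugars and lipids of microbes and molecules of damaged cells. The 10 receptor genes examined here, Clec4a1, Clec4a2, Clec4a3, Clec4b1, Clec4d, Clec4e, Clec4n, Clec7a, Clec9a and Clec12a, were chosen by name, and all 10 were found among the 20330 genes of the deposited table. The values come from adipose tissue macrophages (ATM) sorted by flow cytometry for the proteins of Adgre1 and Itgam (CD11b) from visceral fat of C57BL/6 mice after 12 weeks of high-fat diet. By their labels, all mice were ApoE-/- and had Hif-1α alleles flanked by loxP sites. The KO mice were hMRP8cre+;Hif-1αfl/fl;ApoE-/- and the WT mice were hMRP8cre-;Hif-1αfl/fl;ApoE-/-. The hMRP8 promoter drives the Cre in cells of the myeloid lineage, which include neutrophils as well as macrophages. There was 1 library for each genotype, so no difference could be set against replicates and no test was made. The labels give neither the age of the mice nor whether several animals were pooled.

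The receptors fall into activating and inhibitory types. Activating receptors such as Dectin-2 (Clec4n) and Mincle (Clec4e) associate with the adaptor FcRγ (Fcer1g), and Dectin-1 (Clec7a) carries a signalling tyrosine motif of its own. Both routes recruit the kinase SYK, which acts through CARD9, BCL10 and MALT1 on NF-κB. Inhibitory receptors such as DCIR (Clec4a2) and MICL (Clec12a) carry a motif that recruits the phosphatases SHP-1 (Ptpn6) and SHP-2 (Ptpn11). In obese fat, Mincle is known from macrophages that surround dying adipocytes, and in monocytes signalling from Dectin-1 is known to engage HIF-1α.

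All 10 genes lie on chromosome 6, in a pair of blocks. RefSeq windows before the transcription start (GRCm38.p6) were found for 9 of the 10, Clec4n having no entry. The 250 bases before the start are shown for 4 of them. Clec7a had the largest difference between the libraries, Clec4a1 and Clec4a3 are neighbours whose values differed in opposite directions, and Clec4e holds both forms of the core letters of hypoxia response elements. The sequences run 5′ to 3′ on the strand of the gene. Capitals mark GAGGAA, the core letters of sites of PU.1 (a transcription factor that macrophages need), and ACGTG or GCGTG, the core letters of hypoxia response elements (the sites of HIF-1), on either strand. No capital letters of the 2 kinds overlap.
Clec7a (chr6:129472786-129473035, minus strand): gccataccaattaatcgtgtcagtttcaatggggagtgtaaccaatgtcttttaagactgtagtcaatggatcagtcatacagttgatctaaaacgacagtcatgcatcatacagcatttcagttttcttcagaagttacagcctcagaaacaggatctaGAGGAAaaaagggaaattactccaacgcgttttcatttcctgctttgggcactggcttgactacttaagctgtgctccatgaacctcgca
Clec4a1 (chr6:122921598-122921847, plus strand): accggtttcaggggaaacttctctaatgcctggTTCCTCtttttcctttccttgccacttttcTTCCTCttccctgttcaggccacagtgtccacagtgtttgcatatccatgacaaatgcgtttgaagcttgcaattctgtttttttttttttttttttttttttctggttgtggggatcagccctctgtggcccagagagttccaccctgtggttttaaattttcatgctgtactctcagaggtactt
Clec4a3 (chr6:122952394-122952643, plus strand): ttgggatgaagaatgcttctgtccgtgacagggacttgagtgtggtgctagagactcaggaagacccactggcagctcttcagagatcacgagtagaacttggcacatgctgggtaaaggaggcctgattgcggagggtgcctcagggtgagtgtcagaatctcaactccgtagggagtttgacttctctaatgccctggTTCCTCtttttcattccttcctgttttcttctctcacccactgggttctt
Clec4e (chr6:123289872-123290121, minus strand): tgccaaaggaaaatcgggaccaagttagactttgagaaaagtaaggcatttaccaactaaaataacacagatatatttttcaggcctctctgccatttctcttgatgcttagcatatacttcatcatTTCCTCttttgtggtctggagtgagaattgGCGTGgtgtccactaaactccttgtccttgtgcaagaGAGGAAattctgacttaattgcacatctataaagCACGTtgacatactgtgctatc

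The Clec4a3 window holds 26 annotated exon bases. The letters GAGGAA were in a window of 7 of the 9 receptor genes and in a window of 25.9% of the 27025 genes of the RefSeq table. The 7 genes were Clec4a1, Clec4a3, Clec4b1, Clec4d, Clec4e, Clec7a and Clec12a. The letters ACGTG or GCGTG were in a window of 2 of the 9, Clec4e and Clec4a3, against 41.5% of all genes. In Clec4e, ACGTG began 22 bases and GCGTG 93 bases before the start. In Clec4a3, GCGTG lay in its other RefSeq window, which is not shown. The windows of Clec12a and Clec9a lie within annotated exons. The windows of Clec4a1 and Clec4a3 share the 17 bases cctggTTCCTCtttttc, which begin 222 bases before the start in Clec4a1 and 55 bases before it in Clec4a3. These matches describe letters in the windows and are not binding sites.

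FPKM values (fragments per kilobase of transcript, scaled to the mapped fragments) summed to 585823 in the WT library and 568329 in the KO library. From the lowest values that recur in the table, depth was estimated at 5870000 fragments for WT and 7470000 for KO. The targeted gene Hif1a was at 30.4 FPKM in WT against 20.97 in KO, a value for the whole gene in which the deleted exon is not resolved. Apoe, labelled -/- in both genotypes, was listed at 94.3 FPKM in WT against 117 in KO, so RNA was counted for this gene in both libraries. This is also a whole-gene value, in which a disrupted part is not resolved, and it does not check the ApoE label. The sorting markers were present in both libraries, Adgre1 at 299 (WT) and 239 (KO) FPKM and Itgam at 128 in each. Csf1r, the receptor of the macrophage growth factor M-CSF, was at 615 (WT) and 719 (KO) FPKM. Of 12 macrophage markers in the table, all 12 were above 0 in both libraries, and their median change on the log2(FPKM + 1) scale was 0.02. Single markers differed in both directions, Fcgr1 at 49.3 (WT) and 21.9 (KO) FPKM and Mertk at 38.0 and 88.1.

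It was first asked which receptors the macrophages expressed. In both libraries 9 of the 10 were expressed, at 47.7 to 183 FPKM in WT and at 44.1 to 228 FPKM in KO. Clec9a, which encodes the dead-cell receptor DNGR-1 of cross-presenting dendritic cells, was listed at 0 in both. Together the receptors summed to 896 FPKM in WT and 790 in KO, or 0.153% and 0.139% of all FPKM. The 9 values rested on an estimated 263 to 1783 fragments each in WT and 356 to 2647 in KO. These numbers of fragments bound counting error only, since copies of a molecule made by PCR are not independent.

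**Figure D1:**
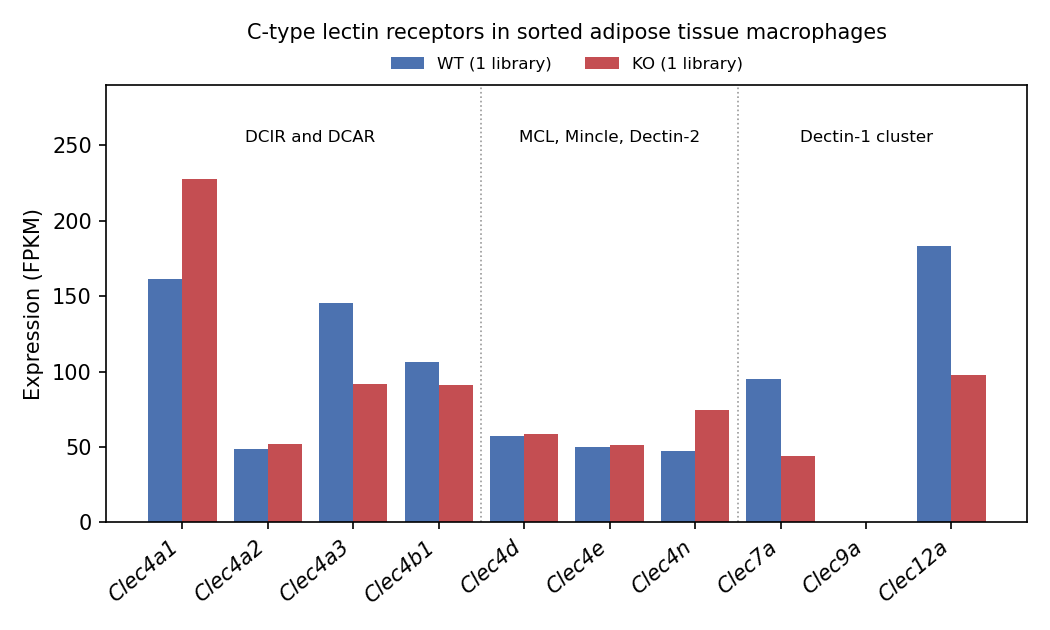
Expression in FPKM of the 10 receptor genes in the WT library (blue) and the KO library (red), grouped by receptor type, with 1 library per bar and no error bars. Clec12a is the highest bar in WT (183) and Clec4a1 the highest in KO (228), Clec4d and Clec4e have bars of like height in both, and Clec9a is at 0.

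The order of the receptors differed between the libraries. In WT the order was Clec12a (183 FPKM), Clec4a1 (162), Clec4a3 (146), Clec4b1 (106), Clec7a (95.2), Clec4d (57.3), Clec4e (50.2), Clec4a2 (48.9) and Clec4n (47.7). In KO it was Clec4a1 (228 FPKM), Clec12a (97.9), Clec4a3 (91.5), Clec4b1 (91.4), Clec4n (74.8), Clec4d (58.9), Clec4a2 (51.9), Clec4e (51.6) and Clec7a (44.1). Clec7a went from the fifth place to the ninth and Clec4n from the ninth to the fifth. Without replicates, neighbours in either order cannot be separated beyond their spread. The highest value was 3.84 times the lowest in WT and 5.15 times the lowest in KO.

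Differences between the libraries were then compared on the log2(FPKM + 1) scale, KO minus WT, for genes that reached 1 FPKM in either library. None of the 9 receptors was past the 3-fold threshold that the study used, against 27.3% of the 10297 genes compared. Among the 1005 genes whose mean FPKM lay in the range of the receptors, 50.4 to 195, the share past 3-fold was 4.28%. At 2-fold 1 of the 9 receptors was past the threshold, Clec7a, against 45.6% of all genes compared and 13.5% of the genes at that level. The share of genes at that level that were at least 2-fold lower in KO was 7.76%. The median change of the 9 receptors was 0.04, that of all genes compared was 0.03, and that of the genes at the level of the receptors was -0.01. In FPKM, 5 of the receptors were larger in KO and 4 were smaller, against 51.3% and 48.7% of all genes compared. In bulk libraries fewer cells of a type and less RNA per cell cannot be told apart.

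**Figure D2:**
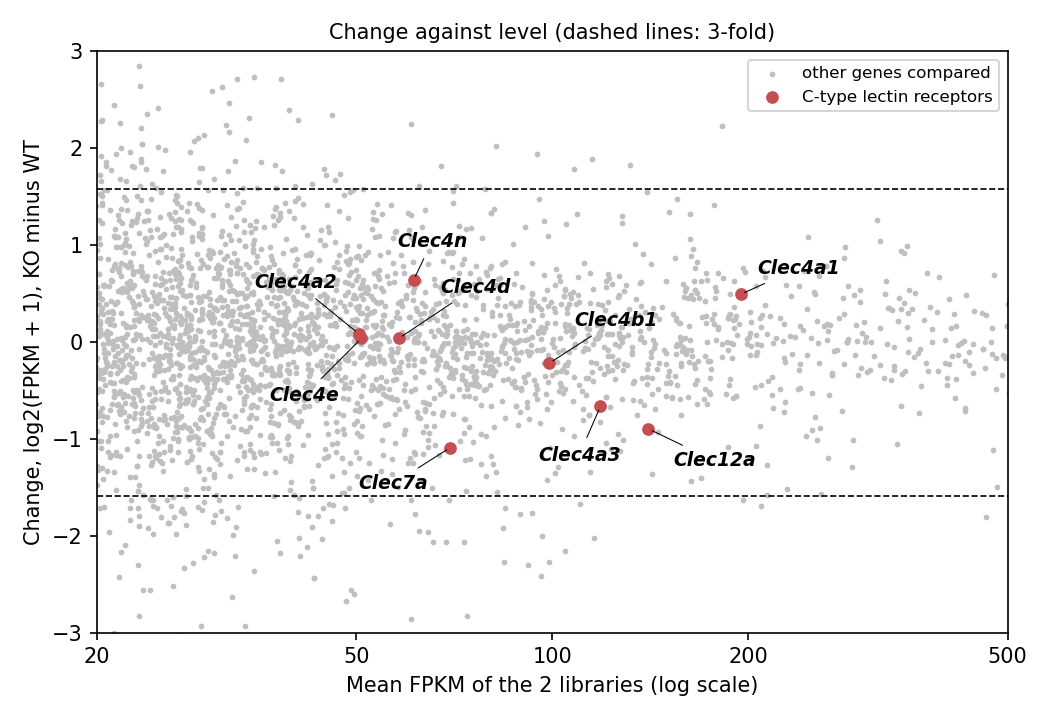
Change in log2(FPKM + 1), KO minus WT, against the mean FPKM of the 2 libraries on a log scale, for the 9 expressed receptors (red) and the other genes compared (grey), with genes beyond the axes not drawn. All 9 receptors lie between the dashed lines of 3-fold, with Clec7a lowest at -1.09 and Clec4n highest at 0.64.

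The Dectin-1 cluster held the receptors with the largest differences. Clec7a, which encodes the β-glucan receptor Dectin-1, was at 95.2 FPKM in WT against 44.1 in KO, a change of -1.09. Clec12a, which encodes the inhibitory receptor MICL, a sensor of uric acid crystals, was at 183 FPKM in WT against 97.9 in KO, a change of -0.90. Both were thus lower in KO, by 2.16 times and 1.87 times in FPKM, the one an activating and the other an inhibitory receptor. The 2 genes together were at 278 FPKM in WT against 142 in KO, whereas the other receptors summed to 618 FPKM in WT and 648 in KO. The estimated number of fragments was 833 (WT) and 492 (KO) for Clec7a, and 1783 and 1213 for Clec12a.

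The receptors that pair with FcRγ from the Dectin-2 group were compared next. Clec4d, which encodes MCL, was at 57.3 FPKM in WT against 58.9 in KO, a change of 0.04. Clec4e, which encodes Mincle, a receptor for the mycobacterial glycolipid trehalose dimycolate, was at 50.2 FPKM in WT against 51.6 in KO, a change of 0.04. MCL and Mincle are known to form a complex, and the ratio of Clec4d to Clec4e in FPKM was 1.14 in each library. Clec4n, which encodes Dectin-2, a receptor for fungal mannans, was at 47.7 FPKM in WT against 74.8 in KO, a change of 0.64. This was the largest positive change among the receptors, at 1.57 times in FPKM.

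The DCIR and DCAR genes diverged from one another. Clec4a1 (DCIR4) was at 162 FPKM in WT against 228 in KO, a change of 0.49, and was the highest receptor in KO. Its neighbour Clec4a3 (DCIR3) was at 146 FPKM in WT against 91.5 in KO, a change of -0.66. The ratio of Clec4a1 to Clec4a3 was therefore 1.11 in WT and 2.49 in KO. Clec4a2, which encodes the inhibitory receptor DCIR, was at 48.9 and 51.9 FPKM, a change of 0.09. Clec4b1, which encodes DCAR, an activating relative of DCIR that pairs with FcRγ, was at 106 and 91.4 FPKM, a change of -0.22. The 4 genes together summed to 462 FPKM in each library.

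These genes are close relatives, so the authors' alignment could have split fragments between them. Of all stretches of 50 nt in the annotated transcripts of a gene (GENCODE M21), 6.69% in Clec4a2 and 8.68% in Clec4b1 also occurred in another gene. Clec4a2 shared them most often with Clec4a4, Clec4b1 and Sri, and any further partners were not recorded. The share was 0% in Clec4a1, Clec4a3, Clec4d, Clec4e and Clec7a, 0.686% in Clec4n and 0.402% in Clec12a. In Clec9a it was 4.02%, all with Clec1b. Only exact matches were counted, over all annotated transcripts of a gene and not the coding ones alone. The shares therefore do not bound how far the alignment could have split fragments.

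The order of genes on chromosome 6 was taken from RefSeq (GRCm38.p6). In the first block, Clec4a1, Clec4a3, Clec4b1, Clec4a2, Clec4n, Clec4d and Clec4e followed in this order. The protein-coding genes Clec4a4, between Clec4a3 and Clec4b1, and Clec4b2, between Clec4a2 and Clec4n, were listed at 0 in both libraries. In the second block, Clec12a and Clec7a stood at the ends, and Clec12b, Clec1b, Clec9a and Clec1a between them were all listed at 0 in both. A listed 0 in this table can be a failed estimate and does not show that a gene was silent.

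**Figure D3:**
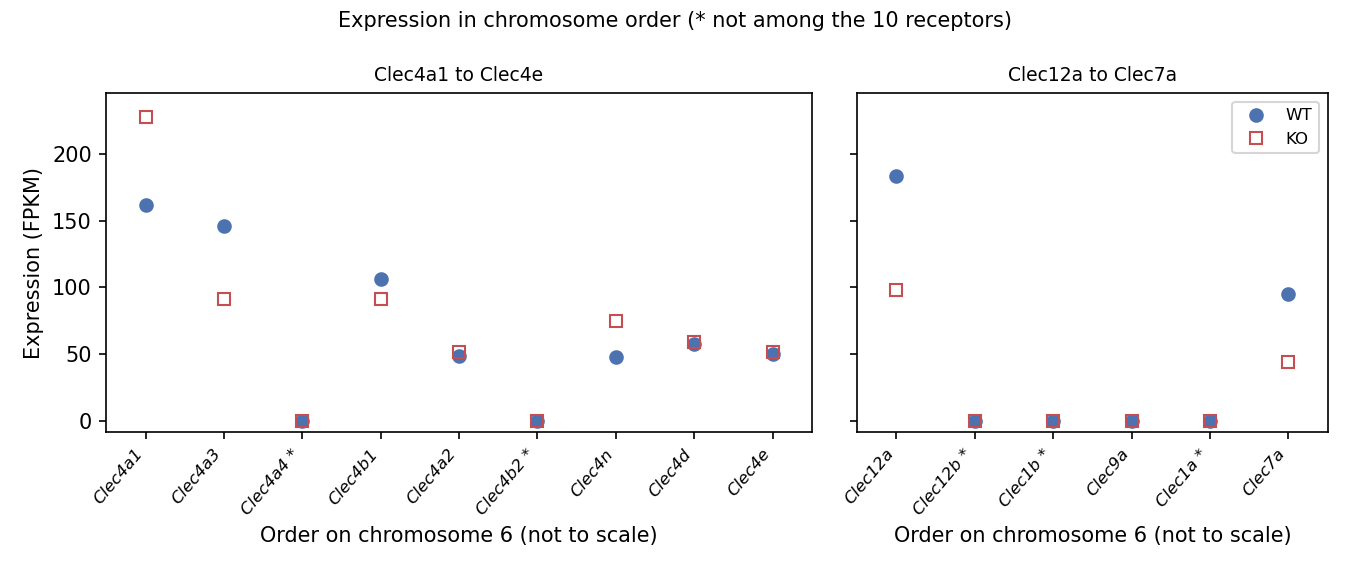
FPKM in the WT library (filled circles) and the KO library (open squares) of the protein-coding genes from Clec4a1 to Clec4e and from Clec12a to Clec7a in their order on chromosome 6, not to scale, with an asterisk on genes that are not among the 10 receptors. Both ends of the second block, Clec12a and Clec7a, are lower in KO, and the 4 genes between them are at 0.

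Other C-type lectins were compared for context, from a list of 30. Of these, 19 passed the filter and 11 were listed at 0 in both libraries. None of the 19 was at least 3-fold higher in KO, against 13.6% of all genes compared, and 3 were at least 3-fold lower, against 13.7%. The 3 were Clec4g, at 18.6 FPKM in WT and listed at 0 in KO, Clec2d, at 17.8 and 3.46, and Olr1, the oxidized lipoprotein receptor LOX-1, at 9.002 and 0.483. Clec4g and Olr1 passed the filter only through WT, which fixed their direction. Over lectins at 1 FPKM or more in both libraries, 1, Clec2d, was past 3-fold, against 11.5% of all genes so filtered. The median change of the 19 was -0.13. Lectins of M2-type macrophages were more abundant than the 10 receptors: Mrc1, the mannose receptor, was at 332 FPKM in WT against 427 in KO, Clec10a at 438 and 400, and Mgl2 at 405 and 602. Of the 7 DC-SIGN relatives, Cd209d, at 414 and 810 FPKM, and Cd209f, at 491 and 394, were of the same order. The others were lower, Cd209g at 182 and 123, Cd209b at 123 and 130, Cd209a at 122 and 131, Cd209c at 7.88 and 22.7 and Cd209e at 4.68 and 12.0.

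Genes that carry the receptors' signals were examined. Of 17 adaptors and kinases, none was at least 3-fold higher in KO and 1 was at least 3-fold lower, against 13.6% and 13.7% of all genes compared. The median change of the 17 was 0.02. Fcer1g, the adaptor of Mincle, Dectin-2 and DCAR, was at 2927 FPKM in WT against 2965 in KO, far above the receptors that use it. Tyrobp (DAP12) was at 1792 and 1858 FPKM and Syk at 116 and 119. The CARD9 complex was less even. Card9 was at 13.4 FPKM in WT against 26.2 in KO, a change of 0.91. Bcl10 was at 40.5 and 43.9 FPKM, a change of 0.11. Malt1, the protease of the complex, was at 21.97 FPKM in WT against 6.53 in KO, a change of -1.61, which is just past the threshold and was inside it when both libraries were scaled to the same FPKM sum. Traf6, which acts after MALT1, was at 5.42 and 17.1 FPKM, inside the threshold with the pseudocount of 1 and past it, as higher in KO, with a pseudocount of 0.1 or 0.01.

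On the inhibitory side none of 4 phosphatases was past 3-fold. The share was 27.3% of all genes compared and 11.5% of those at 1 FPKM or more in both libraries, as all 4 were. Ptpn6 (SHP-1), the phosphatase that DCIR and MICL recruit, was at 55.5 FPKM in WT against 23.97 in KO, a change of -1.18. Inpp5d (SHIP1) was at 84.8 and 108 FPKM, a change of 0.34. Ptpn6 and Clec12a were thus both lower in KO, while Clec4a2 differed by 0.09. None of 10 downstream transcription factor genes was past 3-fold, against the same shares, and their median change was 0.03. All 10 were likewise at 1 FPKM or more in both libraries.

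**Figure D4:**
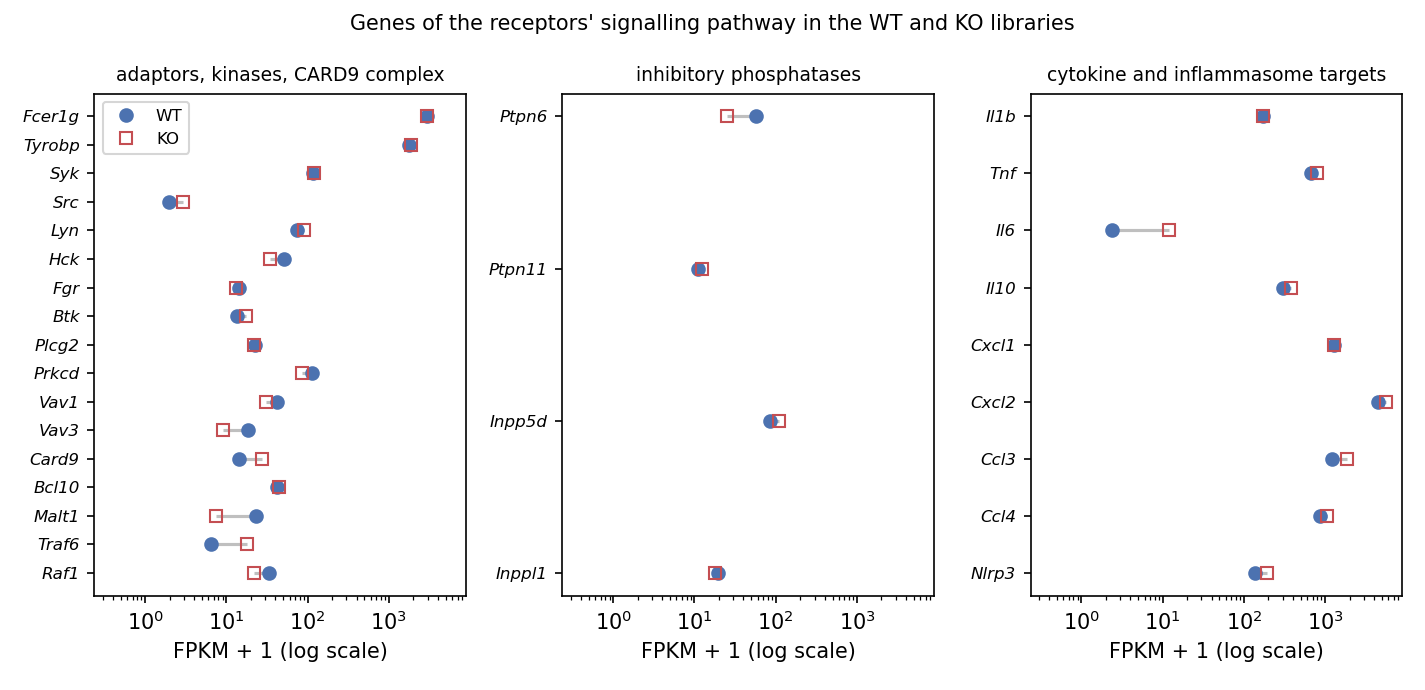
FPKM + 1 on a log scale in the WT library (filled circles) and the KO library (open squares) for the adaptors and kinases, the inhibitory phosphatases and the cytokine and inflammasome genes that passed the filter. Fcer1g and Syk have overlapping symbols, Malt1 and Ptpn6 are lower in KO, and Il6 is higher.

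Cytokine and inflammasome genes that the receptors are known to induce were compared last, 9 of 12 of which passed the filter. Of these 9, 8 had a larger FPKM in KO, against 51.3% of all genes compared, and the median change was 0.33. The 8 include Cxcl1, which was nearly equal at 1269 FPKM in WT and 1271 in KO. Its change of 0.001 is smaller in size than the shift of -0.02 from scaling to the macrophage markers. Of the 9, only Il6 was at least 3-fold higher, against 13.6% of all genes compared, at 1.41 FPKM in WT against 10.9 in KO. Il1b was at 173 FPKM in both libraries. Nlrp3, the sensor of the inflammasome, was at 136 and 191 FPKM and Cxcl2, a neutrophil chemokine, at 4416 and 5549. Many other receptors induce these genes too.

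Markers of other cells were compared because several receptors are also expressed on monocytes, neutrophils and dendritic cells. Of all genes compared, 51.3% were larger and 48.7% smaller in KO by any amount, and 13.6% and 13.7% were so by at least 3-fold. A marker below 1 FPKM in 1 library passed the filter only through the library where it was high, which fixed its direction. For monocytes, neutrophils and cross-presenting dendritic cells, each count is therefore also given over markers of at least 1 FPKM in both. That filter was added after the values were seen, and 11.5% of the 7586 genes that pass it were past 3-fold in either direction. Of 11 monocyte markers 9 were smaller in KO, 4 of them at least 3-fold lower, and 1 was at least 3-fold higher. Over the 6 at 1 FPKM or more in both, 5 were smaller, 2 at least 3-fold lower and 1 at least 3-fold higher. Over the 11, summed FPKM was 891 in WT and 644 in KO, most of it from Nr4a1, at 608 and 489, and Fn1, at 198 and 117, which macrophages also express. Ly6c2, a defining marker, was at 9.39 FPKM in WT and listed at 0 in KO, and Ccr2 was at 29.4 and 9.78. Besides Ly6c2, those at least 3-fold lower were Chil3, Cx3cr1 and Spn, and Ccr2 was inside the threshold. The 1 higher was Plac8, at 1.58 FPKM in WT against 16.96 in KO. The smaller markers differed in the direction of Clec7a and Clec12a, and their part in those differences was not tested. All 8 neutrophil markers past the filter were larger in KO, 3 of them at least 3-fold. Over the 5 at 1 FPKM or more in both, all 5 were larger and 1, S100a9, was at least 3-fold higher. The list summed to 198 FPKM in WT and 580 in KO. S100a8 was at 73.3 and 182 FPKM and S100a9 at 63.4 and 301. Of the granule genes in the list, Camp, Ltf and Mmp8 were at 0 in both, whereas Ngp was at 0 and 2.61 FPKM, Lcn2 at 0.960 and 9.79 and Mmp9 at 38.3 and 48.9. The part of these markers in any difference between the receptors was not tested.

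For Clec9a the dendritic cell markers are the context. Of 10 markers of cross-presenting dendritic cells (cDC1), 7 passed the filter, all 7 were smaller in KO, and 2 of them, Cadm1 and Tlr3, were at least 3-fold lower. Those 2 and Xcr1 passed only through WT, and of the 4 at 1 FPKM or more in both, all 4 were smaller and none was past 3-fold. Over the list of 10, summed FPKM was 173 in WT and 95.4 in KO. Xcr1, the chemokine receptor that defines these cells, was at 1.65 FPKM in WT against 0.0588 in KO, and Clec9a, Itgae and Snx22 were at 0 in both. Most of the summed FPKM of this list came from Naaa, at 64.3 and 36.1 FPKM, Batf3, at 40.5 and 28.7, and Irf8, at 27.3 and 21.9. The sum therefore does not show how many of these cells were sorted. Of the general dendritic cell genes, 8 in all, 6 passed the filter, and the list summed to 168 FPKM in WT and 179 in KO. The 1 at least 3-fold higher in KO, Zbtb46, passed only through KO, which fixed its direction. Kit also passed only through KO, and Dpp4 only through WT. Cd209a, Cd24a and Itgax, at 1 FPKM or more in both, were inside 3-fold. Flt3 was at 0 and 0.0362 FPKM and Zbtb46 at 0 and 9.45, while Itgax was at 35.5 and 27.0, Dpp4 at 1.27 and 0 and Ccr7 at 0.529 and 0. Most of the sum was Cd209a, at 122 and 131 FPKM. Of 6 plasmacytoid dendritic cell markers 3 passed, Siglech 3-fold or more higher at 1.42 and 8.31 FPKM, Bst2 at 58.8 and 102 and, in the other direction, Tcf4 at 39.4 and 23.2. Of 5 B cell markers 2 passed, with Cd79b at 0 and 5.52 and Cd79a, in the other direction, at 2.50 and 0.222. The sums were 99.6 and 134 FPKM for the plasmacytoid list and 2.75 and 6.46 for the B cell list. All 6 T and NK cell markers in the table were at 0 in both libraries.

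**Figure D5:**
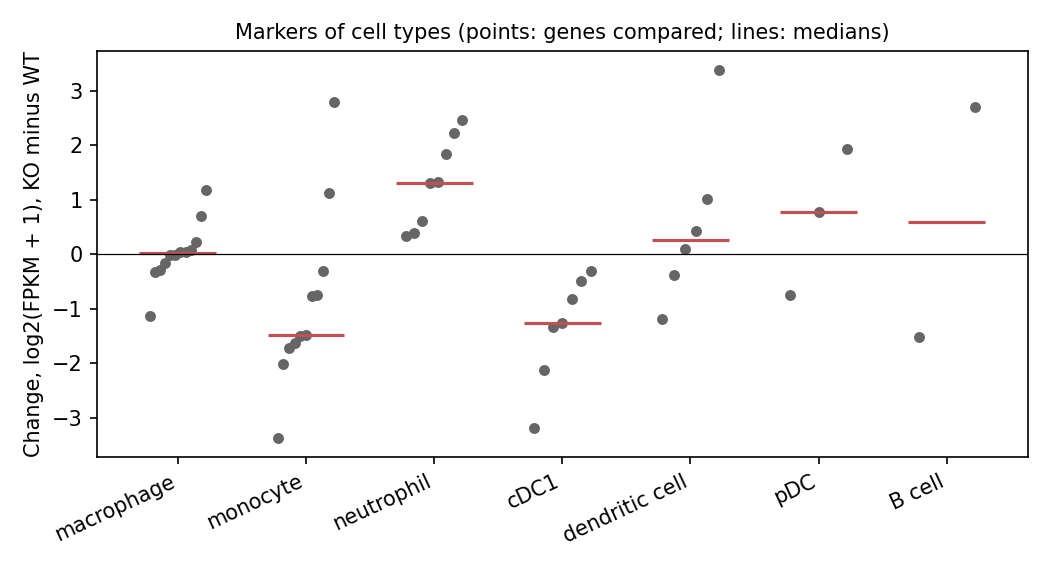
Change in log2(FPKM + 1), KO minus WT, of the marker genes that passed the filter, by cell type, with 1 point per gene and a red line at the median of each list. The macrophage median is 0.02, the monocyte and cDC1 medians are -1.47 and -1.25, and the neutrophil median is 1.31, which over markers at 1 FPKM or more in both libraries become -1.13, -0.65 and 0.61 for the latter 3 types.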

How the data were processed

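ATM of 1 WT and 1 KO library were sequenced from poly(A) RNA copied with random hexamers. The authors deposited FPKM values per Ensembl gene. Their processing notes name CASAVA 1.8.2, TopHat2 2.0.9, Cufflinks 2.2.1 and the build mm9, without the annotation or filters. FPKM is already divided by length and library size and is not a count, so no count model was fitted. The mutant column was read as KO, the only sample that carries the Cre.

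Of 20749 rows, 401 full repeats were dropped and 18 rows with other values for an identifier were summed, which left 20330 genes. Symbols (98.5% matched), lengths and shared stretches came from GENCODE M21 and promoter windows from RefSeq, both on GRCm38, whose coordinates were not mixed with the authors' build. Changes were log2(FPKM + 1), KO minus WT, which understates the change of low genes, for the 10297 genes that reached 1 FPKM in either library. The 3-fold threshold applies on this scale. Fragments were estimated from the smallest recurring FPKM x kb in genes with a single transcript (0.170 in WT, 0.134 in KO).

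By rule, all receptors, the pathway genes and other lectins past 3-fold, fixed key adaptors, phosphatases and lectins, the defining markers, Hif1a and Apoe were named. Further pathway genes, lectins and markers inside 3-fold, and markers past it, were named after their values were seen. With 2 libraries no gene was named for a pattern like that of a receptor. Receptors and gene lists were chosen with earlier results of these data known, and the promoter letters after the values were seen. Il12b, Cd68 and Trac were not analysed here. Alternatives were pseudocounts of 0.1 and 0.01, other filters, scalings and handling of repeated identifiers, and a 2-fold threshold. A filter of 1 FPKM in both libraries was added for the monocyte, neutrophil and cDC1 marker lists after the values were seen. The functions were tested on simulated data. Python 3.11.15, numpy 2.4.6, pandas 2.3.3 and matplotlib 3.10.9 were used.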

Additional observations from a re-analysis of the deposited data

How the results depend on the processing

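No paired analysis was possible because there was a single library of WT and of KO. With no spread between replicates, a count was held to be stable if it moved by less than 1.5 times, and a log2 change if it shifted by less than the log2 of 1.5. No change of the 9 expressed receptors altered its sign, but the filters and the handling of repeated rows could not alter these changes, and a scaling shifts all genes nearly alike. The change of Clec7a lay between -1.11 and -1.05, that of Clec12a between -0.92 and -0.85, that of Clec4n between 0.62 and 0.68, and the median of the receptors between 0.01 and 0.08. Scaling KO to the same FPKM sum, upper quartile or macrophage markers shifted changes by 0.04, 0.01 and -0.02. Of 106 values for the counts, medians and sum of the receptors and the counts and medians of the lectin and pathway lists, 98 were stable and 8 moved. The marker lists were not in this tally, and most of their counts moved where 1 FPKM was required of both libraries. Markers at least 3-fold lower went from 4 to 2 for monocytes and from 2 to 0 for cDC1. Those at least 3-fold higher went from 3 to 1 for neutrophils and stayed at 1 for monocytes. With a 2-fold threshold, 1 receptor, 5 other lectins, 3 adaptors and kinases and 1 phosphatase were past it. They came from 9, 19, 17 and 4 genes compared, and 45.6% of all genes compared were past 2-fold. Where 1 FPKM was required of both libraries, 1 other lectin (Clec2d) was past 3-fold, since Clec4g and Olr1 no longer entered. For adaptors and kinases the count was 2 with either smaller pseudocount, as Traf6 joined Malt1, and 0 with scaling to the same sum. The median of the adaptors and kinases was between -0.00 and 0.06 and has no stable sign.

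Each of the 9 expressed receptors rested on at least 263 estimated fragments in either library. That bounds counting error only, since copies made by PCR are not independent. Without replicates no difference can be set against the spread between mice or sorts.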

Other observations

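Beyond the genes above, the table held 9 further genes with a Clec symbol, of which 5 were listed at 0 in both libraries. Clec16a, a regulator of mitophagy that is named for its resemblance to the family, was at 17.2 FPKM in WT against 9.27 in KO. Clec3b, which encodes the secreted protein tetranectin, reached 17.6 FPKM in KO and was listed at 0 in WT. Clec2h and Clec2l were also listed at 0 in WT, and were at 7.21 and 3.57 FPKM in KO. These 4 genes were named after their values had been seen, and no fold is given for a gene listed at 0.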
